A study of Homo sapiens with 6 samples.

Results

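The genes described here encode the subunits of the proteasome and the factors that assemble it. They were chosen by name, as every gene whose symbol has the form PSMA to PSMG followed by a number, together with POMP, which gave 49 of the 60709 genes with values in the count table. RNA sequencing was done on the neuroblastoma line SH-SY5Y, a long-established human cell line, to see how these cells respond to a fumarate joined to an Nrf2 peptide. The labels describe 6 samples. The 3 control wells received 10 uL of DMSO. The 3 treated wells received the same 10 uL of DMSO and 200 uL of a solution of the Nrf2-peptide-linked fumarate, prepared with 2 mg in 600 uL of water. The labels give no such addition of water to the control wells. All cells were at 80% confluence in 2 mL of medium, and all were lysed 5 h after the addition. Only 3 columns of the table carry a number that the labels give, and these are the numbers of the 3 control samples. The samples of treated wells were therefore not analysed here, and all values below are of the control libraries. The name control rests on the match of these numbers alone, so that if the columns had been numbered afresh the libraries described here could be those of treated cells. The labels name each replicate separately but not whether they were separate cultures, so the spread between them, which is all that a p-value here can measure, may be technical.

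The proteasome is the protease that degrades proteins tagged with ubiquitin. Its core is a barrel of alpha and beta rings, with the active sites inside it on the beta subunits PSMB5, PSMB6 and PSMB7. A cap binds ubiquitin chains, removes them and unfolds the substrate with a ring of ATPases, and core and cap together form the 26S proteasome. The subunits of the core occur in equal numbers, as do the ATPases of the cap. Cells exposed to interferon can replace the active subunits with those of the immunoproteasome. The transcription factor NRF1, encoded by NFE2L1, raises the transcription of these genes when proteasome activity is short, and NRF2, encoded by NFE2L2, acts on some of them under oxidative or electrophilic stress.

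Totals were 10683037, 11397407 and 8887854 counts in control replicates 1, 2 and 3. Levels are given as counts per 1000000 (CPM) with TMM scaling, or as CPM per kb of transcript where genes are compared with each other. A gene was called measured where every library had at least 10 counts, which held for 13920 genes of the table and for 47 of the 49 proteasome genes. The cells' labelled type was checked against 7 genes of noradrenergic neuroblastoma, of which 6 were measured, with HAND2 at 914 CPM and DBH at 799 CPM, while TH was at 0 in all 3 libraries. Of 10 marker genes of blood, endothelial, fibroblast and epithelial cells, 3 were measured (COL1A1, DCN and EPCAM), their list summed to 21.4 to 22.3 CPM, and CD3E and LYZ were among those at 0.

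The 49 proteasome genes took 0.623% of the counts in control replicate 1, with a 95% Wilson interval of 0.618 to 0.627%. The share was 0.637% (0.633 to 0.642%) in replicate 2 and 0.624% (0.619 to 0.629%) in replicate 3. Its mean was 0.628% ± 0.00798 (SD, n = 3). The 31 subunit genes of the 26S proteasome that carry these names made up most of it, with 0.526% ± 0.00797, against 0.0285% ± 0.00118 for the 8 assembly factor genes and 0.00173% ± 0.000148 for the 3 immunoproteasome genes. In bulk libraries such as these, fewer cells with a transcript and less of it in each cell cannot be told apart.

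**Figure D1:**
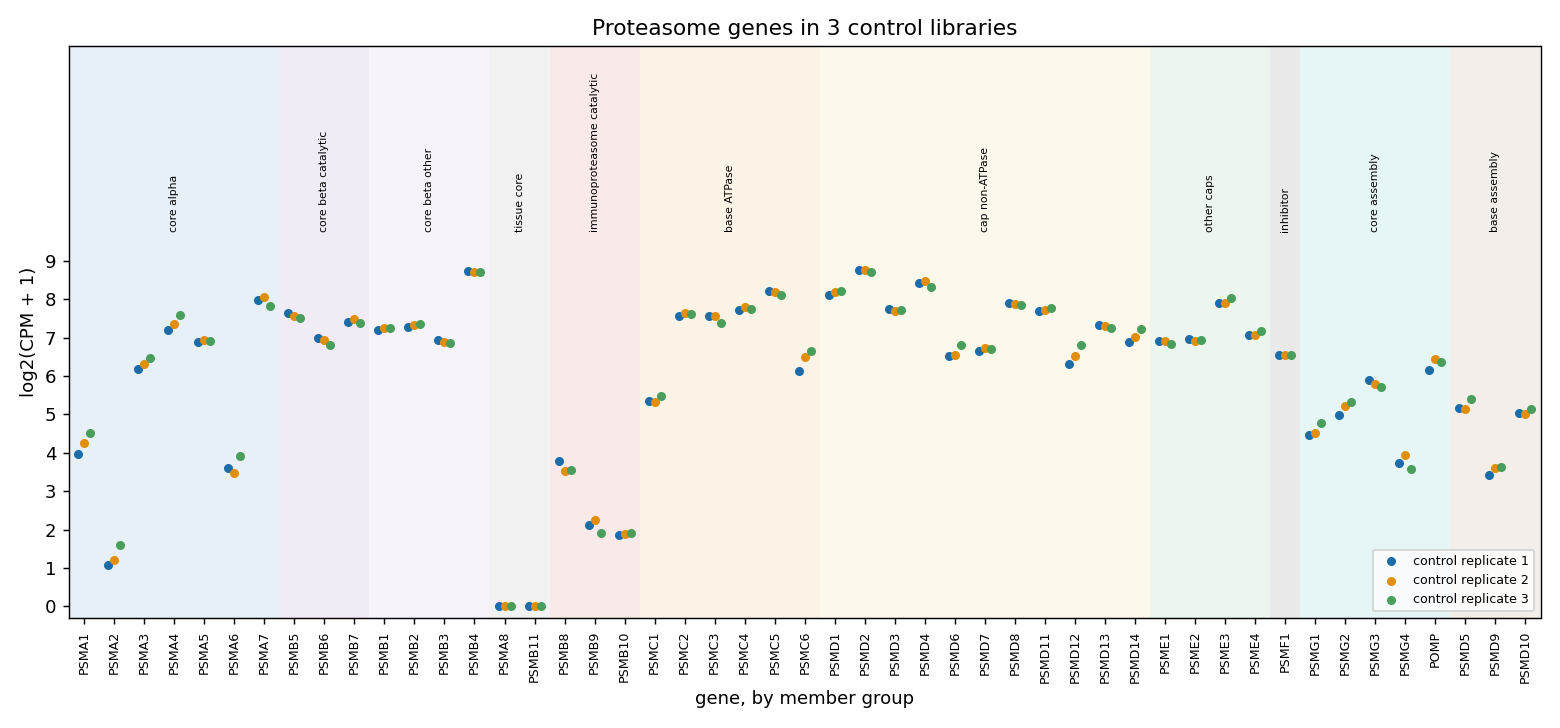
Level of each of the 49 proteasome genes as log2(CPM + 1) on the vertical axis, with 1 point per control library and genes arranged by group on the horizontal axis. The 3 libraries lie close together for most genes, PSMA8 and PSMB11 lie at 0, and PSMA1, PSMA2, PSMA6 and PSMC1 lie below the other subunit genes of their groups.

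The 7 genes of the beta ring lay within a narrower range than the 7 genes of the alpha ring, mostly through PSMA1, PSMA2 and PSMA6. By CPM per kb of coding sequence, the beta genes ran from 167 ± 10.9 (SD, n = 3) for PSMB6 to 530 ± 4.51 for PSMB4, a ratio of 3.17. The alpha genes ran from 2.12 ± 0.699 for PSMA2 to 332 ± 27.8 for PSMA7, a ratio of 156. Per kb of the longest transcript the ratios were 5.38 for the beta genes and 688 for the alpha genes, and per kb of the longest protein-coding transcript 11.5 and 247. PSMB4, a beta subunit without an active site, had 4540, 4816 and 3655 counts, and PSMA7, an alpha subunit, had 2711, 3030 and 1971. Among the alpha genes PSMA3, PSMA4, PSMA5 and PSMA7 had levels of 104 to 332 CPM per kb of coding sequence. PSMA1, PSMA2 and PSMA6, most of whose coding bases also lie in another gene as described below, had levels of 22.7 or less. Per kb of the longest protein-coding transcript, PSMA3, PSMA4, PSMA5 and PSMA7 ran from 32.1 for PSMA5 to 248 for PSMA7. The beta genes then ran from 37.7 for PSMB2 to 435 for PSMB4, so a difference between the rings as such is not shown.

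The 3 genes of the active sites were at similar levels. PSMB5, the chymotrypsin-like site, had 198, 188 and 183 CPM in control replicates 1, 2 and 3. PSMB6, the caspase-like site, had 126, 122 and 111 CPM. PSMB7, the trypsin-like site, had 168, 180 and 166 CPM. Per kb of the longest transcript their means were 147 ± 6.13, 137 ± 8.98 and 175 ± 7.46, and the libraries of PSMB5 and PSMB6 overlapped. Per kb of coding sequence they were 240 ± 10.1, 206 ± 8.80 and 167 ± 10.9 for PSMB5, PSMB7 and PSMB6, so the highest of the 3 depended on the length used.

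In the cap, the 6 ATPase genes ran from 30.9 ± 1.81 CPM per kb of coding sequence for PSMC1 to 236 ± 7.82 for PSMC5. The 11 other cap genes ran from 68.1 ± 11.7 for PSMD12, a scaffold subunit of the lid, to 298 ± 18.4 for PSMD4, a receptor for ubiquitin chains. PSMD4 had 343, 358 and 317 CPM in the 3 libraries. PSMD14, which removes the ubiquitin chain from the substrate, had 118, 127 and 150 CPM. PSMD11, a lid scaffold subunit, had 204, 211 and 219 CPM. The highest cap gene by CPM was PSMD2, a base scaffold that binds ubiquitin-like domains, with 437, 434 and 414 CPM.

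Summed over the genes chosen by name, the order of core and cap depended on the length used. Per kb of the longest transcript the 14 core genes summed to 1318 ± 30.9 CPM per kb and the 17 cap genes to 1395 ± 22.4. Per kb of coding sequence the core genes summed to 2661 ± 33.9 and the cap genes to 2397 ± 33.4. The chosen names leave out ADRM1 and SEM1, which also encode cap subunits. With them, a set of 19 genes made after seeing the data, the cap summed to 1514 ± 27.3 per kb of the longest transcript. Per kb of coding sequence it summed to 2823 ± 38.6, so this sum lay above the core by both lengths. A sum grows with the number of genes. Per kb of coding sequence the median was 138 ± 3.70 for these 19 genes and 195 ± 5.09 for the 14 core genes. Per kb of the longest transcript the medians were 70.0 ± 3.84 and 69.5 ± 3.88. PSMA1, PSMA2 and PSMA6 in the core and PSMC1 in the cap share most of their coding sequence with other genes, as described below. Without these genes, a setting chosen after seeing the data, the core summed to 1302.7 ± 33.1 per kb of the longest transcript. The cap genes chosen by name then summed to 1385.4 ± 22.8. What shared reads do to the levels of these genes was not tested, so the order of core and cap is not settled by these data. For 18 of the 49 genes the longest transcript is annotated as something other than a protein-coding transcript, mostly one that keeps an intron, so both lengths are given here.

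Of the 31 subunit genes of the 26S proteasome, PSMA2, PSMA6, PSMA1 and PSMC1 were the 4 lowest. PSMA2 had 12, 15 and 18 counts in control replicates 1, 2 and 3. PSMA6 had 119, 115 and 125 counts, and PSMA1 had 158, 207 and 194. PSMC1, an ATPase of the base, had 428, 446 and 382 counts. In each library these 4 lay below the other 27 per kb of coding sequence. Per kb of coding sequence their means were 2.12 ± 0.699, 15.6 ± 2.88, 22.7 ± 4.56 and 30.9 ± 1.81 CPM, while the other 27 genes ran from 68.1 for PSMD12 to 530 for PSMB4, with a median of 166.9. The same 4 genes were lowest per kb of the longest transcript and of the longest protein-coding transcript, and under these 3 lengths also without any 1 of the libraries. With the median transcript length PSMB2 took the fourth place at 58.9 CPM per kb and PSMC1 the next at 67.2. The levels of PSMA6 and PSMA1 overlapped between libraries, and PSMA2 lay below both in each.

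**Figure D2:**
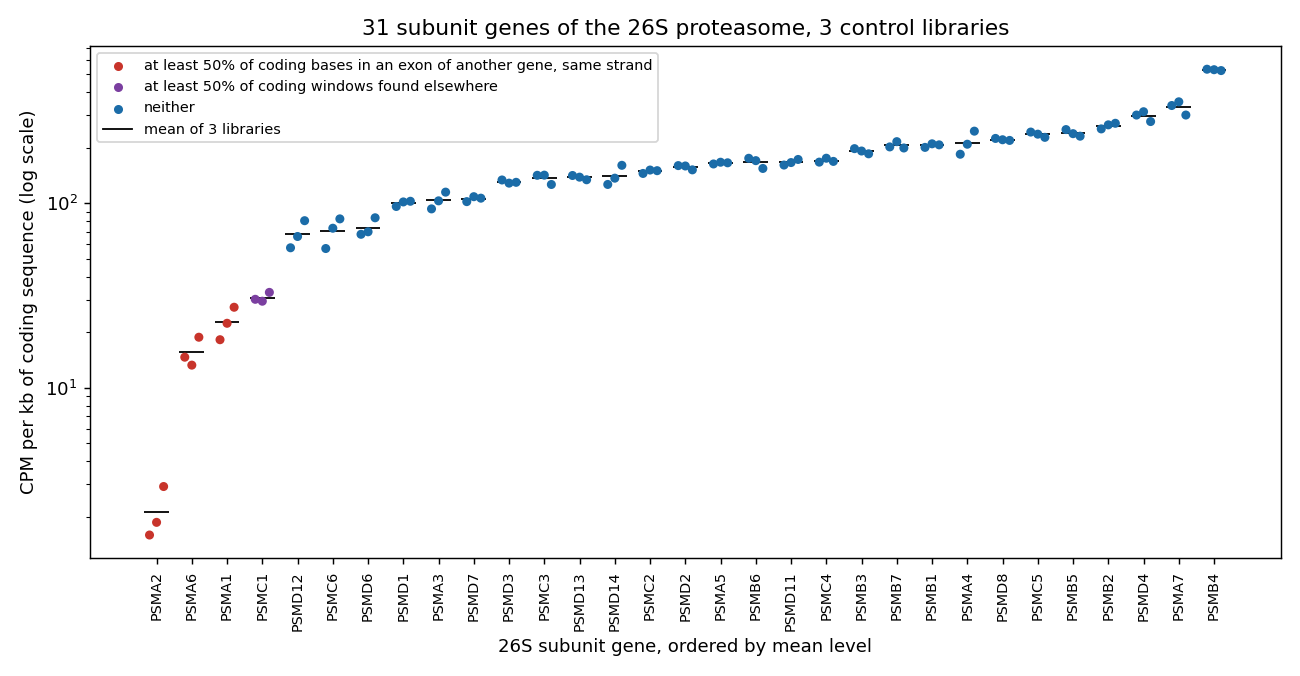
Level of the 31 subunit genes of the 26S proteasome in CPM per kb of coding sequence on a log scale, ordered by mean, with 1 point per control library and a line at the mean. The 3 genes drawn in red share at least 50% of their coding bases with an exon of another gene on the same strand, the gene in purple has at least 50% of its coding windows elsewhere in the transcriptome, and these 4 stand below the other 27, which run from 68.1 to 530.

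For 3 of these genes, PSMA2, PSMA1 and PSMA6, the annotation places most of the coding sequence in a second gene. In GENCODE release 29, on GRCh38, 97.1% of the coding bases of PSMA2 (chr7:42916857-42932223, minus strand) also lie in exons of a second gene on the same strand, ENSG00000256646. That share was 88.6% for PSMA1 (chr11:14504874-14643635, minus strand, with ENSG00000256206) and 70.4% for PSMA6 (chr14:35278633-35317493, plus strand, with ENSG00000258790). The second genes themselves had almost no counts, with 0 in every library for the partners of PSMA2 and PSMA1, and 2, 5 and 3 for the partner of PSMA6. None of the other 28 genes of the 26S proteasome reached 50%. Among all 49 genes 5 did, the others being PSMD9 (58.7%) and PSMB10 (58.3%), which is 10.2% of them, beside 4.53% of the 19377 coding genes with a symbol. By CPM, PSMD9 was the lowest of the assembly factors in each library but for PSMG4 in replicate 3, at 9.78, 11.1 and 11.3 CPM. PSMB10 was the lowest of the immunoproteasome genes by mean CPM. Both were also lowest by mean per kb of coding sequence, but not per kb of the longest transcript. By that length PSMG4 was at 2.72 CPM per kb against 3.51 for PSMD9, and PSMB9 at 1.22 against 2.20 for PSMB10. Some ways of counting leave out reads that lie in more than 1 gene. Whether the authors' counting did so is not given in the sources used here, and the part of these overlaps in the levels was not tested.

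PSMC1 (chr14:90256495-90275429, plus strand) differs from the other 3 in what it shares. None of its coding bases lie in another gene on the same strand, but 98.7% of its 50-base coding windows are also found in transcripts of 11 genes elsewhere. The nearest of these is the pseudogene copy PSMC1P1 (chr3:68635705-68637024, plus strand), in which 1319 of the 1320 coding bases of PSMC1 are identical. The single difference is T885A, counted from 1 at the first coding base of PSMC1, with the PSMC1 base written first. Bases 855 to 915 are shown because this is where the coding sequences differ, and the capital marks the differing base.
PSMC1: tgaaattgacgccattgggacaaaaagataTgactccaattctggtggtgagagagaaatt
PSMC1P1: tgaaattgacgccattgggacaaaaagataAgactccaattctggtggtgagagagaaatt
PSMC1P1 had 10, 14 and 17 counts against 428, 446 and 382 for PSMC1. How reads matching several places were treated is not given in the sources used here, so the level of PSMC1 is uncertain.

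Other members shared sequence to a lesser degree. The share of coding windows found elsewhere was 45.6% for PSMC6, 30.6% for PSMA6, 20.6% for PSME2 and 20.5% for PSMD4, and it was 0 for 35 of the 49 genes. PSMC6, an ATPase of the base, was the sixth lowest 26S gene by coding length, after PSMD12, at 70.9 ± 12.9 CPM per kb. The table lists 45 named pseudogene copies of the proteasome genes, of which 26 had no count in any library, and all copies together had 63, 80 and 61 counts. Apart from PSMC1P1, only PSME2P2 was measured, with 42, 42 and 31 counts. On the opposite strand, exons of NRDE2 cover 47.7% of the coding bases of PSMC1, and NRDE2 had 334, 351 and 274 counts. The libraries were made with a stranded kit, per the labels' protocols, but whether counting used the strand is not given in the sources used here.

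The immunoproteasome genes were measured in every library but at low levels. PSMB8, which takes the place of PSMB5, had 138, 121 and 94 counts, or 12.9, 10.6 and 10.7 CPM. PSMB9, which takes the place of PSMB6, had 36, 43 and 24 counts, or 3.35, 3.75 and 2.73 CPM. PSMB10, which takes the place of PSMB7, had 28, 31 and 24 counts, or 2.68 ± 0.0647 CPM. In no library did an immunoproteasome gene come near the constitutive gene whose place it takes.

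Per kb of the longest transcript, PSMB5 was 30.8 ± 2.26 times PSMB8 (mean ± SD of the ratio within each of the 3 libraries), PSMB6 was 113 ± 12.5 times PSMB9, and PSMB7 was 79.4 ± 3.54 times PSMB10. Per kb of coding sequence the ratios were 17.6 ± 1.30, 33.8 ± 3.72 and 63.0 ± 2.81, so the highest ratio passed from PSMB6 over PSMB9 to PSMB7 over PSMB10. The exact two-sided sign-flip permutation test gave p = 0.25 for each of the 3 pairs, also after Benjamini-Hochberg adjustment, which is the smallest p that 3 libraries allow. Since PSMB10 shares 58.3% of its coding bases with ENSG00000261884, which had 22, 24 and 16 counts, its level and its ratio are uncertain. Summed, the 3 immunoproteasome genes reached 8.22 ± 0.536 CPM per kb of the longest transcript, and the 3 constitutive genes 459 ± 18.2.

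**Figure D3:**
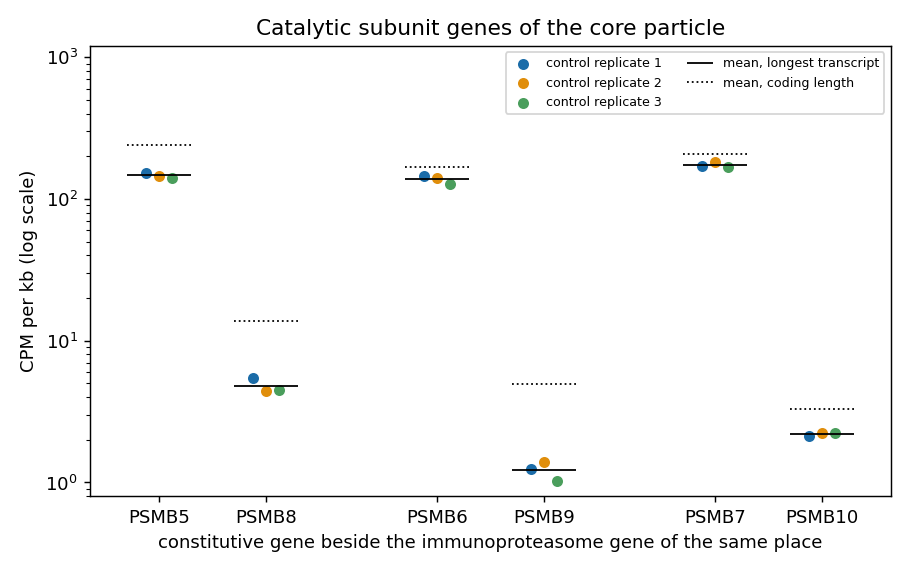
Level of the 3 constitutive genes of the active sites, each beside the immunoproteasome gene that takes its place, in CPM per kb on a log scale. Points are the control libraries per kb of the longest transcript, full lines their means, and dotted lines the means per kb of coding sequence; PSMB5, PSMB6 and PSMB7 lie between 137 and 175 by the first length, and PSMB8, PSMB9 and PSMB10 between 1.22 and 4.79.

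Genes that work beside the immunoproteasome in antigen presentation and in the interferon response were mixed. The median level of 22 such genes was 30.4 ± 1.63 CPM, and 20 of them were measured. CALR, a chaperone of class I assembly, was the highest at 797 CPM, and the class I light chain B2M was at 439 CPM. The peptide transporter gene TAP1, which lies beside PSMB9, was at 25.1 CPM, and the class I activator NLRC5 at 8.21 CPM. IRF1, an interferon-induced transcription factor, was at 18.5 CPM. The lowest was the interferon-induced gene MX1 at 0.332 CPM, with 3, 3 and 4 counts.

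The 2 core genes known from single tissues had no counts. PSMA8, the alpha subunit of testis, and PSMB11, the beta subunit of the thymus cortex, had 0 counts in all 3 libraries. With no count seen, a true level of up to 3 counts remains possible, equal to 0.279, 0.262 and 0.341 CPM in replicates 1, 2 and 3. This limit covers counting error only, as do the intervals above.

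Of the 4 alternative cap genes, 3 lay within the range of the 27 higher 26S genes per kb of coding sequence, with PSME1 at 157 ± 5.64 CPM per kb, PSME2 at 159 ± 3.07 and PSME3 at 306 ± 15.1. PSME1 and PSME2, the 2 subunits of the interferon-inducible activator PA28, had nearly the same counts, with 1284, 1378 and 990 for PSME1 and 1328, 1364 and 1062 for PSME2. Their ratio was 0.985 ± 0.0397 per kb of coding sequence, but 2.35 ± 0.0948 per kb of the longest transcript, which for PSME2 keeps an intron. PSME3, the nuclear activator PA28 gamma, had 2564, 2729 and 2281 counts, and PSME4, the large activator PA200, had 1434, 1531 and 1255. PSME3 stood at 1.96 ± 0.171 times PSME1 per kb of coding sequence and at 0.707 ± 0.0615 times per kb of the longest transcript, so their order is not settled by these data. PSME4 was the lowest of the 4 by either length, at 24.7 ± 0.958 CPM per kb of coding sequence. PSMF1, the inhibitor PI31, had 93.1, 91.8 and 92.2 CPM, the smallest spread of the measured proteasome genes at a coefficient of variation of 0.727%. That is below its counting error of 3.24%, so 3 libraries do not show that it varies less than other genes.

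The 8 assembly factor genes ranged from 16.003 CPM per kb of coding sequence for PSMD9 to 187 for POMP. All 8 were measured, and they summed to 164.4 ± 7.20 CPM per kb of the longest transcript and to 521.8 ± 19.9 per kb of coding sequence. POMP, the chaperone that matures the beta ring, was the highest, with 69.8, 86.4 and 80.8 CPM. The alpha ring chaperones PSMG1 and PSMG2, which work as a pair, had 21.2, 21.9 and 26.5 CPM and 30.9, 36.5 and 39.0 CPM. Their partners PSMG3 and PSMG4, which also form a pair, stood further apart, with 58.7, 53.9 and 51.3 CPM for PSMG3 and 12.4, 14.3 and 10.9 CPM for PSMG4. Per kb of coding sequence PSMG3 reached 149 ± 10.2 CPM and PSMG4 25.8 ± 3.50, and no library of one overlapped with those of the other. The chaperones of the ATPase ring were PSMD5, with 35.1, 34.5 and 41.6 CPM, PSMD10, with 32.0, 31.2 and 34.0 CPM, and PSMD9, given above.

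Genes that act with the proteasome but do not carry its names were also present. Of 12 associated genes all were measured, at a median of 110.6 ± 4.00 CPM, from ZFAND2A at 15.9 to the ubiquitin ligase UBE3C at 198. ADRM1, a ubiquitin receptor of the cap, and SEM1 stood at 113 and 128 CPM, and the deubiquitinases of the cap, USP14 and UCHL5, at 127 and 46.9 CPM. The cap assembly gene PAAF1 was at 39.2 CPM, and AKIRIN2, which brings proteasomes into the nucleus, at 45.7 CPM. All 4 ubiquitin genes were measured, the lowest being UBB at 389 CPM, and 10 shuttle and unfolding genes from 73.5 CPM for UBQLN2 to 732 for VCP, all of them measured.

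Of 12 genes that act on proteasome transcription, all were measured, at a median of 50.0 ± 1.39 CPM. NFE2L1 was the highest, with 494.5, 454.3 and 463.5 CPM. NFE2L2, which encodes the factor the peptide is named for, had 86.0, 92.2 and 119 CPM, with a mean of 99.2 CPM. Its coefficient of variation was 17.8%, above its counting error of 3.15%. DDI2, the protease that cuts NRF1 into its active form, was at 66.0 CPM, and NGLY1, which removes its sugars, at 20.8 CPM. The lowest was MAFF, a small partner of these factors, at 10.4 CPM.

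NRF1 and NRF2 bind the antioxidant response element, whose core is TGACNNNGC, where N is any base. Promoter windows of 300 bases, from 250 before to 50 after the start, were taken from RefSeq on GRCh38.p14 and matched 43 of the 49 genes. These genes had 52 windows, and a gene was counted where any of its windows held a match. On either strand this core was found for 15 of the 43, or 34.9%, beside 16.1% of all 27305 genes with a window. Wholly before the start it was found for 13, or 30.2%, beside 13.2%. CCAAT, the element of NF-Y, was found for 20 of the 43, or 46.5%, beside 39.7%. Such a match is a description of letters and not a site of binding. The matches wholly before the start of 26S subunit genes, which these factors are known to act on, were in PSMA4, PSMB3, PSMD3, PSMD12 and PSMC5, and are shown within 30 bases, with the letters of the core in capitals.
PSMA4, chr15:78540650-78540679, plus strand: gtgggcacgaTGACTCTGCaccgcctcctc
PSMB3, chr17:38752627-38752656, plus strand: gcctccgtttTGACTTTGCaaccaaactac
PSMD3, chr17:39980760-39980789, plus strand: tcccctttgtTGACTCGGCcatcggcctgc
PSMD12, chr17:67366723-67366752, minus strand: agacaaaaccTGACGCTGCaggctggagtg
PSMC5, chr17:63827654-63827683, plus strand: gaccggatctGCTGTGTCAgcgccgccctc
In PSMC5 the core lies on the other strand and so reads in reverse complement. The first capital lay 126 bases before the start in PSMA4, 104 in PSMB3, 37 in PSMD3, 165 in PSMD12 and 57 in PSMC5. PSMC5 also has a window with an earlier start, and the match shown lies after that start.

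The median coefficient of variation of the 47 measured proteasome genes over the 3 libraries was 4.94%, with a range of 0.727% for PSMF1 to 32.9% for PSMA2, and that of all 13920 measured genes was 8.62%. At 100 or more counts in each library the medians were 4.27% for 41 proteasome genes and 7.12% for 9932 genes. The median counting error was also lower for the proteasome genes, at 2.84% against 5.56% for all measured genes. At 100 or more counts it was 2.725% against 4.32%. These medians of spread therefore do not compare genes of like counts. The spread of 36 of the 47, or 76.6%, was above the counting error of their counts, beside 68.1% of all measured genes. Without control replicate 3 the median was 3.005%, beside 4.90% for all genes, and 24 of the 47, or 51.1%, were above counting error, beside 45.6% of all genes.

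Among genes of 100 or more counts in every library, PSMA1, PSMA6, PSMC6, PSMD12 and PSMA4 varied most. PSMA1 had 14.7, 18.1 and 22.1 CPM and a coefficient of variation of 20.1%. PSMA6 had 11.1, 10.0 and 14.2 CPM, at 18.5%. PSMC6 had 68.8, 88.7 and 99.6 CPM, at 18.2%. All 5 were highest in replicate 3, PSMD12 with 78.6, 90.5 and 110 CPM and PSMA4 with 145, 164 and 193 CPM.

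Control replicate 3 was higher than the mean of the other libraries by at least 1.25-fold for 6 of the 47 genes, or 12.8%, beside 10.6% of all measured genes. These were PSMA1, PSMA2, PSMA4, PSMA6, PSMC6 and PSMD12. It was lower by that much for PSMB9 alone, beside 8.14% of all genes. Replicate 1 was lower for PSMA1, PSMA2, PSMC6 and PSMD12, or 8.51%, beside 8.43% of all genes, and higher for none, beside 5.22%. Replicate 2 was lower for PSMA6 alone, beside 5.65%, and higher for none, beside 3.81%.

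The departure of replicate 3 ran with the GC content of the genes. In the 16 proteasome genes of lowest GC content, 32.0 to 43.6%, the median log2 difference of replicate 3 from the mean of the others was 0.24, and 16 of 16 were higher. In the 16 genes of middle GC content it was 0.01, with 8 higher. In the 15 of highest GC content, 52.2 to 60.1%, it was -0.09, with 2 higher. Across the 47 genes, which share these libraries and their depth, Pearson's r was -0.593 and Spearman's rho -0.695, beside -0.701 and -0.727 across the 10290 nuclear genes used to fit the trend. With the trend of all genes removed, the medians were -0.02, -0.01 and -0.0002, and the coefficient of variation was lower for 30 of the 47, or 63.8%, beside 65.1% of all measured genes. PSMD12 then had a coefficient of variation of 7.24%, against 17.2% before, whereas PSMA1, of 46.2% GC, had 19.2%, against 20.1%.

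**Figure D4:**
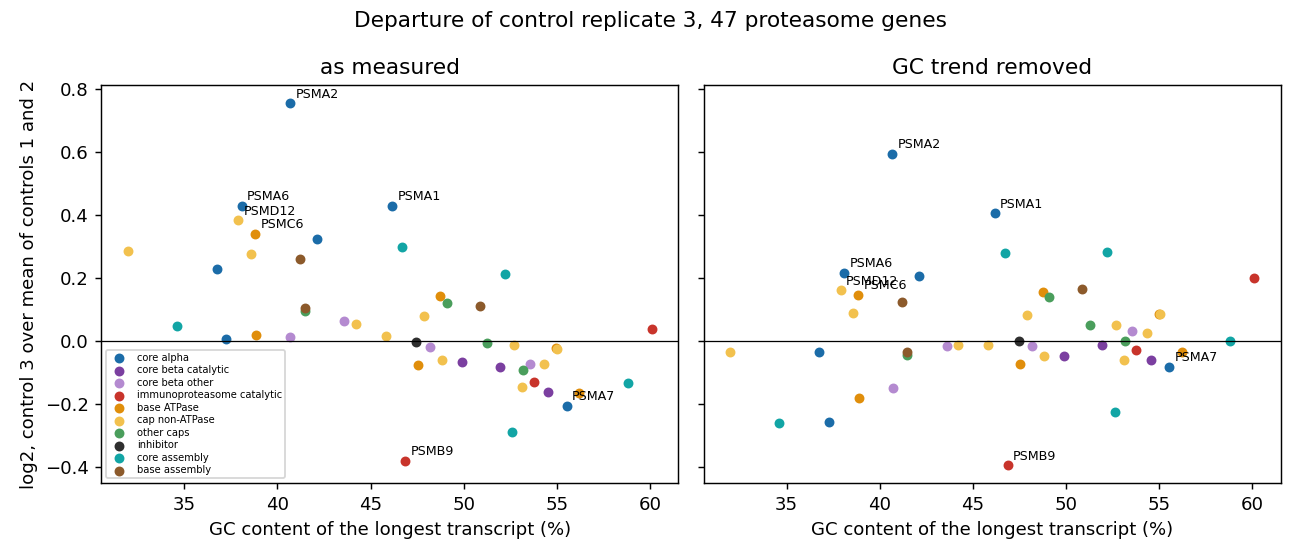
Log2 difference of control replicate 3 from the mean of replicates 1 and 2 against the GC content of the longest transcript in percent, for the 47 measured proteasome genes coloured by group. As measured (left), the genes of lowest GC content lie above 0, with a median of 0.24; with the trend over all genes removed (right), their median is -0.02, and PSMA2 and PSMA1 still lie highest.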

How the data were processed

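Raw counts per Ensembl gene, as the authors deposited them, were used without change. Per the submitters' processing notes the tools were fastp 0.21.1, STAR 2.7.7a and featureCounts, with the build GRCh38. The annotation release, the strand setting and the treatment of reads matching several places are not given in the sources used here. Columns were matched to samples by number, and 3 columns that match no sample were not used, so the comparison of peptide-treated with control cells was not run. Of 60710 genes listed, 1 (ANK2) is broken over lines, 2 of which name no gene, and has no values in the columns used.

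CPM values used TMM factors (edgeR 4.0.16, run under R 4.3.3) from genes of 10 or more counts in each library. Lengths, GC content and overlaps came from GENCODE release 29. The authors may have used another release. It covered 58404 of the 60709 genes and all 49 proteasome genes. Symbols matched 60480 genes. The GC trend was the median deviation in 50 bins over 10290 nuclear genes. Coding windows were 50 bases long. Python 3.11.15 with scipy 1.17.1, pandas 2.3.3, numpy 2.4.6 and matplotlib 3.10.9 made the tables and plots, and the steps were tested on simulated data. Depth was 8887854 to 11397407 counts per library. Intervals are 95% Wilson intervals.

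The genes and lists were chosen with earlier results of these data known. All proteasome genes could be named, with values per library for the catalytic, immunoproteasome, alternative cap and assembly genes, the highest and lowest of each group and the 5 that varied most. Of the other lists, the highest and lowest genes and a fixed set could be named. The marker genes other than HAND2 and TH and the genes overlapping others were named after their values were seen. Alternatives were RLE factors, library size alone, other lengths, other count minimums, GC trend removal and each library left out. Protein sequences were not used here. A few genes of the other lists are not reported here.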

Additional observations from a re-analysis of the deposited data

How the results depend on the processing

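With RLE factors or library size alone, the level of every one of the 49 genes moved by less than 1 SD. The 3 log2 ratios of constitutive to immunoproteasome genes kept their direction under every setting run. Length mattered most. The median level of the proteasome genes, 41.6 CPM per kb of the longest transcript, was 116.62 CPM without length scaling, and 118.43, 133.65 and 55.631 CPM per kb of the median transcript, the coding sequence and the longest protein-coding transcript. In the same order the summed level was 2263.3, 2660.7 and 1669.6 for the core, 3802, 2397.1 and 1594.8 for the 19S cap, 17.325, 21.99 and 14.753 for the immunoproteasome, and 708.85, 646.73 and 281.85 for the other caps. The assembly factors summed to 319.15 by median transcript and 521.78 by coding length. Without members whose reads may be shared, a setting chosen after seeing the data like the coding length of single genes and the longest protein-coding transcript, the immunoproteasome sum was 6.0148. With ADRM1 and SEM1, also added after seeing the data, the 19S cap summed to 1514.4. Coding length moved the level of 47 of the 49 genes by more than 1 SD, and leaving out control replicate 3 moved that of 1, PSMB4. With each library left out in turn, the summed level of the other caps, 239.55, ranged from 238.76 to 240.55, and the median coefficient of variation of the proteasome genes from 3.005 to 5.83%, the lowest without control replicate 3. The other summed levels, the median level and the pair ratios moved by less than 1 SD or kept their direction. No paired analysis was possible because only the control samples had matched columns. The planned tests of peptide-treated against control cells with edgeR, DESeq2 and limma-voom were not run for that reason. Depth limits PSMA2, PSMB9 and PSMB10, whose counting errors were 25.8, 17.1 and 19.01%.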

Other observations

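The overlap with another gene on the same strand, described above for PSMA1, PSMA2 and PSMA6, can be set beside all coding genes. Of 877 coding genes with a symbol that share at least 50% of their coding bases with another gene on the same strand, 431, or 49.1%, were measured with at least 10 counts in every library, and their median level was 1.19 CPM. Of 18500 coding genes that share less, 11931, or 64.5%, were measured, and their median level was 13.1 CPM. These are values of different genes in the same 3 libraries, and what else differs between these genes was not tested.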
